A study of Mus musculus with 12 samples.

Results

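Among the genes of arginine, nitric oxide and polyamine metabolism, 10 were described in RNA sequencing data from mouse bone marrow-derived macrophages. They were taken as the rows of the deposited count table whose symbol was Slc7a1, Slc7a2, Nos2, Gch1, Ass1, Asl, Arg1, Arg2, Odc1 or Sat1, which gave 10 of 54446 gene identifiers. All 10 passed the filter on low counts that left 13773 genes for testing. Every mouse carried loxP-flanked Nlrc3 alleles. Wild type (WT) mice were LysM-Cre- and the knockout (KO, NLRC3ΔMac) was LysM-Cre+, with Cre recombinase under the LysM promoter, which is active in myeloid cells. Marrow from femurs and tibias was grown with recombinant M-CSF and serum in RPMI 1640, and cells were then kept in medium or given LPS (lipopolysaccharide, a bacterial cell wall component) for 12 h. Each of the 4 groups held 3 libraries. The labels give no age or sex and do not say whether replicates came from separate animals.

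Arginine stands at a branch point in macrophages. Cationic amino acid transporters bring it into the cell. The inducible nitric oxide synthase turns it into nitric oxide and citrulline with tetrahydrobiopterin as a cofactor, and argininosuccinate synthase and lyase can rebuild arginine from citrulline. Arginases instead split arginine into urea and ornithine, from which ornithine decarboxylase starts the synthesis of the polyamines. Macrophages given bacterial products are known for the nitric oxide branch, and those given interleukin-4 for the arginase branch.

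Library totals ran from 13082947 to 20960505 counts. Levels below are counts per 1000000 (CPM), scaled by the library total alone, and 3 counts correspond to 0.143 to 0.229 CPM. Nlrc3, the targeted gene, read 9.89, 13.6 and 10.4 CPM in WT medium and 0.796, 4.39 and 1.40 CPM in WT LPS. It read 0.996, 0.8502 and 0.876 CPM in the libraries labelled KO medium but 15.6, 8.29 and 6.04 CPM in those labelled KO LPS, so its level went against the label of the last group. The count table does not say which exons the counts come from, so counts outside the deleted stretch could not be set apart. For 8 LPS-responsive genes outside the set (Il6, Il12b, Il1b, Tnf, Acod1, Ccl5, Cxcl10 and Ifit2), every library of WT LPS and of labelled KO medium lay above every library of WT medium and of labelled KO LPS. The groups are therefore named below as the libraries labelled KO, and each direction drawn from them rests on labels that these genes went against. The share of all genes whose libraries separated in this way is not given, either for these 8 or for the 10 genes below. Xist exceeded 20 CPM in 5 libraries (WT medium 1 and 3, WT LPS 2, labelled KO LPS 2 and 3) and in none of labelled KO medium, so sex was not balanced over the groups. Its level was 586.5, 634 and 437 CPM in these WT libraries, but 191 and 95.15 CPM in labelled KO LPS 2 and 3. What the lower level stands for was not tested. WT LPS 2 stood apart within its group. It was the Xist-positive library there, and it read 12.3 CPM of Il6 against 245 and 214 CPM in WT LPS 1 and 3, and 114 CPM of Tnf against 754 and 528. Among the 3 WT LPS libraries it was lowest in Nos2, Slc7a2, Gch1, Arg2, Odc1 and Sat1, and highest in Ass1 and Arg1. For Asl and Slc7a1 it was highest in CPM only. That order does not hold with the scaling factors of the tests, 0.765, 1.02 and 0.819 in WT LPS 1, 2 and 3. Numbers in the descriptions of WT medium 2 and WT LPS 1 are the same (45), as are those of WT medium 3 and WT LPS 2 (50); the labels do not say what they stand for.

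Nos2, Slc7a2, Ass1, Arg2, Gch1 and Odc1 were higher in WT LPS than in WT medium. Among the libraries labelled KO, the same 6 genes were lower with LPS than in medium. Calls below are adjusted p-values under 0.05 from edgeR (quasi-likelihood test, Benjamini-Hochberg adjustment over the 13773 genes). Of the 10 genes, 6 were called higher with LPS in WT, where 18.3% of all genes were called in either direction and 11.9% higher. In the libraries labelled KO, 6 were called lower with LPS, against 30.4% of all genes in either direction and 15.3% lower. Under LPS, 6 were lower in labelled KO than in WT (24.1% of all genes called, 13.7% lower). In medium, 6 were higher in labelled KO than in WT (26.3% called, 14% higher). The median log2 difference of the 10 genes was 2.95 in WT, against -0.06 over all genes tested, and -2.31 in the libraries labelled KO, against 0.04. For labelled KO against WT it was -2.44 under LPS (all genes 0.06) and 2.43 in medium (all genes -0.02). These 4 comparisons share groups pairwise, so they are not independent of one another. Without WT LPS 2, the WT values were 9.39 for Nos2, 6.43 for Slc7a2, 3.79 for Arg2, 3.43 for Gch1, 3.15 for Ass1 and 2.02 for Odc1, each called by edgeR. When WT medium and WT LPS were compared only between libraries that share a number, 4 of the 6 were called (Nos2 8.37, Slc7a2 5.65, Ass1 3.79, Gch1 2.64). Of all 13773 genes, 1044 were called in that comparison, against 2526 when all WT libraries were used. Arg2, at 2.29 (adjusted p = 0.192), and Odc1, at 1.10 (adjusted p = 0.110), were not called there by edgeR. RNA from whole cultures was measured, so fewer cells of a type and less RNA per cell cannot be told apart.

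Log2 differences were scaled by trimmed-mean (TMM) factors, which ran from 1.10 to 1.46 in WT medium, 0.765 to 1.02 in WT LPS, 0.702 to 0.791 in labelled KO medium and 1.20 to 1.24 in labelled KO LPS. Scaling by library totals alone moved the median log2 difference of all genes from -0.06 to -0.64 for LPS in WT, and from 0.04 to 0.78 for LPS in the libraries labelled KO. Under that scaling the calls among the 10 genes became 5 higher and 1 lower in WT, and 2 higher and 5 lower in the libraries labelled KO. The fold of a gene in this text is therefore not the ratio of its CPM means. The share of all genes called on library totals is not given. Counts of calls on library totals, here and below, are thus no result about the genes counted.

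**Figure D1:**
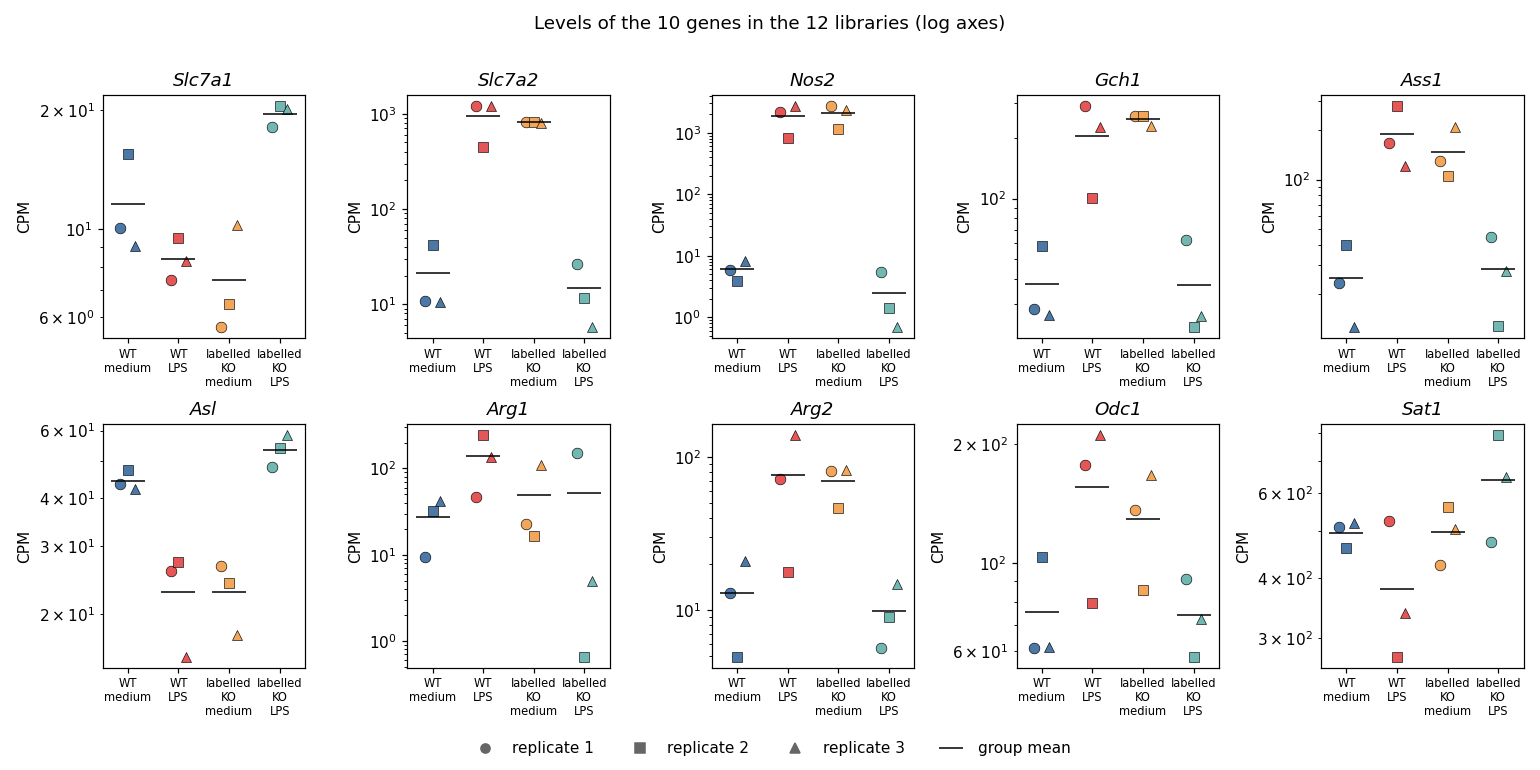
Levels of the 10 genes in CPM (log axes) in each of the 12 libraries; symbols give the replicate number and the bar the group mean. Nos2, Slc7a2, Ass1 and Gch1 sit high in every library of WT LPS and labelled KO medium, while Arg1 in labelled KO LPS spreads from 0.655 to 151 CPM.

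Slc7a1 and Slc7a2 encode the cationic amino acid transporters CAT1 and CAT2. Slc7a2 (chromosome 8, 40862396 to 40922308, plus strand, mm10) read 10.7, 41.96 and 10.5 CPM in WT medium and 1197, 451 and 1205 CPM in WT LPS. It read 814, 821 and 803 CPM in labelled KO medium and 26.6, 11.6 and 5.73 CPM in labelled KO LPS. Every library of the high groups thus stood far above every library of the low groups. Slc7a2 rose with LPS in WT by 6.04 ± 0.87 on the log2 scale (SE, a 65.8-fold rise; adjusted p = 0.000772, edgeR), and was lower with LPS in the libraries labelled KO by -6.54 ± 0.89 (adjusted p = 0.000423, edgeR). Without WT medium 2 the WT value was 7.19, and without labelled KO LPS 1 the labelled KO value was -7.31. A long non-coding gene on the opposite strand, Gm26584, shares 635 exon bases with Slc7a2 but reached at most 0.111 CPM.

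Slc7a1 (chromosome 5, 148327410 to 148399904, minus strand) was low everywhere. It read 10.1, 15.5 and 9.08 CPM in WT medium, 7.43, 9.49 and 8.33 CPM in WT LPS, and 5.64, 6.45 and 10.2 CPM in labelled KO medium. The 3 libraries labelled KO LPS, at 18.1, 20.5 and 20.1 CPM, lay above all others. No edgeR comparison called Slc7a1: the log2 difference was 0.08 ± 0.32 for LPS in WT and 0.67 ± 0.32 for LPS in the libraries labelled KO (adjusted p = 0.132). Scaled by library totals alone, the latter was 1.40 and was called (adjusted p = 0.003998, edgeR), while the former changed sign to -0.46. For labelled KO against WT under LPS, the value was 0.71 (adjusted p = 0.124, edgeR); it was 1.22 and called on library totals (adjusted p = 0.0113), and 0.84 and called with a term for Xist-positive libraries (adjusted p = 0.0483).

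Nos2 (chromosome 11, 78920787 to 78960254, plus strand) encodes the inducible nitric oxide synthase. It read 5.94, 3.90 and 8.35 CPM in WT medium and 2153, 831 and 2704 CPM in WT LPS. It read 2717, 1148 and 2347 CPM in labelled KO medium and 5.43, 1.42 and 0.689 CPM in labelled KO LPS, the last from 13 counts. No library of the high groups came near the range of the low ones. Nos2 had the largest called log2 difference of the 10 genes in each comparison that called any: it rose by 8.98 ± 0.93 with LPS in WT (506-fold; adjusted p = 0.000116, edgeR), and was lower with LPS in the libraries labelled KO by -10.42 ± 0.99 (adjusted p = 5.1e-05, edgeR). Without labelled KO LPS 1, the library of that group with the most Nos2, the second value was -11.68.

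Gch1 (chromosome 14, 47153895 to 47189413, minus strand) encodes GTP cyclohydrolase, the rate-limiting enzyme of tetrahydrobiopterin synthesis. Its promoter window is shown because it moved with Nos2, whose product needs that cofactor. The window runs from 250 bases before to 50 after the RefSeq start (GRCm38.p6, chr14:47189364-47189663, minus strand), 5′ to 3′. Capitals mark matches, on either strand, to an NF-κB type motif (GGG, any 5 bases, CC) and to TATAAA.
Gch1: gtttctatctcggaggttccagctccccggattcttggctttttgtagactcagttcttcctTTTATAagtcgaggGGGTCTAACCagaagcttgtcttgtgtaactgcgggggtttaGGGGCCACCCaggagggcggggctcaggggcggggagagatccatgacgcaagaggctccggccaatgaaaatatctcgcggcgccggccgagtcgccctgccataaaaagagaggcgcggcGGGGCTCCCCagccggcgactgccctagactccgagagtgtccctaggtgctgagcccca
The NF-κB type motif matched at 3 places, 2 of which read on both strands, and occurs in 50.8% of 32851 RefSeq promoter windows of this length. TATAAA matched once, on the reverse strand, and occurs in 13.6% of windows.

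Gch1 read 28.2, 58.2 and 26.4 CPM in WT medium and 289, 100.5 and 228 CPM in WT LPS. It read 259, 256 and 229 CPM in labelled KO medium and 62.1, 22.9 and 26.0 CPM in labelled KO LPS. The high and low groups did not overlap. Gch1 rose by 3.04 ± 0.59 with LPS in WT (8.24-fold; adjusted p = 0.00446, edgeR) and was lower with LPS in the libraries labelled KO by -3.49 ± 0.60 (adjusted p = 0.00158, edgeR), or -4.10 without labelled KO LPS 1.

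Ass1 (chromosome 2, 31470207 to 31520672, plus strand) encodes argininosuccinate synthase and Asl (chromosome 5, 130011258 to 130029247, minus strand) argininosuccinate lyase, the consecutive enzymes that recycle citrulline. The Ass1 window (GRCm38.p6, chr2:31470020-31470319, plus strand, from RefSeq) is printed for comparison with that of Gch1, with matches to the NF-κB type motif and CACGTG (an E box) on either strand in capitals.
Ass1: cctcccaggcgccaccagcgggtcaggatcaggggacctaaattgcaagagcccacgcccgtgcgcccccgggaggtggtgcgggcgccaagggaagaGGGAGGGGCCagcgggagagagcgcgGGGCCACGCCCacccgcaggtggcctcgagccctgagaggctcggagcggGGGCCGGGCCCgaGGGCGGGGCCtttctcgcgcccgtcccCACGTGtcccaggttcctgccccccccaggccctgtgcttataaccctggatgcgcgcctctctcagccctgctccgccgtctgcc
CACGTG occurs in 7.15% of the RefSeq windows. None of the other motifs searched on both strands, TTCNNNGAA (the GAS type, 8.30% of windows), the ISRE (GAAA, any 2 bases, GAAA; 3.44%), TTGCNNCAA (the C/EBP type, 2.08%), TGATGNAA (the C/EBP-ATF type, 3.97%) and TATAAA, was found in these Ass1 letters, and the first 4 of them were not found in the Gch1 window.

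Ass1 read 23.3, 39.9 and 12.6 CPM in WT medium and 166, 280.2 and 121 CPM in WT LPS. It read 129, 105 and 208 CPM in labelled KO medium and 44.9, 12.9 and 27.8 CPM in labelled KO LPS. Every high library lay above every low one. Ass1 rose by 3.37 ± 0.58 with LPS in WT (10.4-fold; adjusted p = 0.00217, edgeR) and was lower with LPS in the libraries labelled KO by -3.09 ± 0.57 (adjusted p = 0.00225, edgeR). Without WT medium 2 the WT value was 4.003.

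The counts of Ass1 are uncertain in size because a processed pseudogene, Gm5424, is 99.5% identical to it over 1240 bases, and reads could be split between them. Gm5424 held between 26.0% and 75.9% as many counts as Ass1, depending on the library. It was singled out after its values were seen. Gm5424 itself was called higher with LPS in WT, at 2.93 ± 0.41 (adjusted p = 0.000679, edgeR). Ass1 and Gm5424 summed to 37.4 ± 17.0 CPM in WT medium, 255 ± 114 in WT LPS, 192 ± 73.7 in labelled KO medium and 39.96 ± 17.9 in labelled KO LPS (SD, n = 3 each). With the copies added, the log2 difference for LPS in WT was 3.25, close to that of Ass1 alone.

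**Figure D2:**
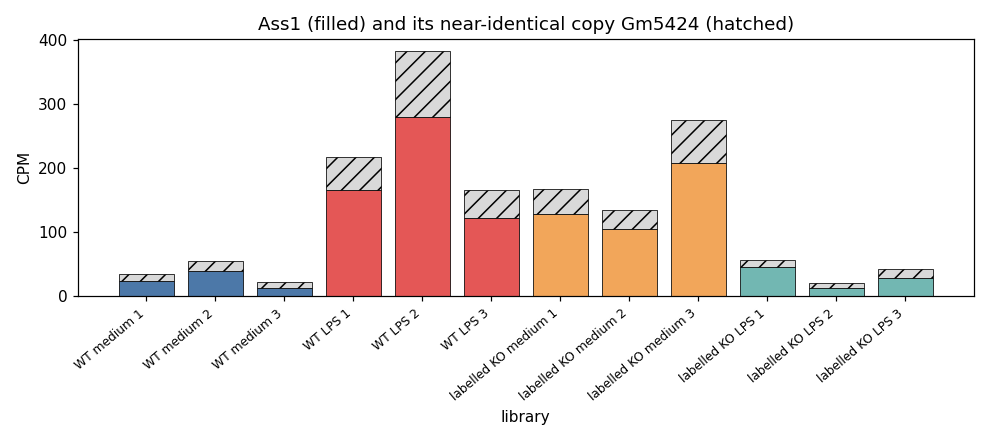
Ass1 (filled) and its near-identical copy Gm5424 (hatched), in CPM, stacked for each of the 12 libraries. The sum ranges from 165 to 383 CPM in WT LPS and from 22.2 to 55.7 CPM in WT medium.

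Asl, the next enzyme, did not follow Ass1. It read 43.6, 47.4 and 42.3 CPM in WT medium and 48.3, 54.0 and 58.2 CPM in labelled KO LPS. It read 25.8, 27.2 and 15.4 CPM in WT LPS and 26.7, 24.1 and 17.6 CPM in labelled KO medium, with no overlap on this scale. On the TMM scale Asl was not called: the log2 difference was -0.39 ± 0.29 for LPS in WT (adjusted p = 0.385, edgeR) and 0.47 ± 0.29 for LPS in the libraries labelled KO (adjusted p = 0.231, edgeR). Scaled by library totals alone, the values were -0.96 (adjusted p = 0.0202, edgeR) and 1.23 (adjusted p = 0.00396, edgeR), both called. For labelled KO against WT under LPS, Asl was at 0.72 ± 0.29 (adjusted p = 0.0880, edgeR) and was called by DESeq2 (adjusted p = 0.0418). Under both scalings the direction of Asl was opposite to that of Ass1.

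Arg1 (chromosome 10, 24915221 to 24927484, minus strand) encodes the cytosolic arginase. Its log2 differences had the largest SE of the 10 genes in every comparison. It read 9.48, 32.0 and 41.6 CPM in WT medium and 47.2, 242 and 135 CPM in WT LPS. It read 22.9, 16.3 and 109 CPM in labelled KO medium and 151, 0.655 and 4.98 CPM in labelled KO LPS, so libraries of the last group differed by over 2 orders of magnitude. The WT groups did not overlap, whereas the labelled KO groups did. Arg1 was not called in any comparison: the log2 difference was 2.85 ± 1.42 for LPS in WT (adjusted p = 0.190, edgeR), with a 95% interval of -0.24 to 5.93, and -0.58 ± 1.33 for LPS in the libraries labelled KO (adjusted p = 0.767). A fit to the WT libraries alone called the WT difference, at 2.81 (adjusted p = 0.0433, edgeR), as did a fit with no filter on low counts, at 2.79 (adjusted p = 0.0131, edgeR).

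The values of Arg1 in comparisons with labelled KO LPS depended strongly on 1 library, labelled KO LPS 1. Without it, Arg1 was called lower with LPS in the libraries labelled KO by -4.81 (adjusted p = 0.0106, edgeR), and lower in labelled KO than in WT under LPS by -6.07 (adjusted p = 0.00599, edgeR) in place of -1.84. Without labelled KO medium 3, the LPS difference in the libraries labelled KO instead had the opposite sign, at 0.68. Summed markers of neutrophils (11 genes, S100a8 and Ly6g among them) were 1215, 5738 and 6998 CPM in labelled KO LPS 1, 2 and 3, against 898 to 1342 CPM in WT medium, 1007 to 4397 in WT LPS and 1129 to 3134 in labelled KO medium. Summed B lineage markers (7 genes) were 13.1, 85.4 and 87.0 CPM in the same 3 libraries and 4.20 to 13.2 CPM in all others. Summed macrophage markers (8 genes, with Adgre1, Csf1r and Cd68) were 21231 to 34432 CPM in labelled KO LPS, 32183 to 35761 in WT medium, 12620 to 19337 in WT LPS and 10062 to 12947 in labelled KO medium. Summed megakaryocyte markers (4 genes) were 524 to 784 CPM in labelled KO LPS, 149.8 to 454 in WT medium, 143 to 491 in WT LPS and 159 to 525 in labelled KO medium. Summed T cell markers (5 genes) were 2.33 to 13.8 CPM in labelled KO LPS, 1.22 to 10.3 in WT medium, 5.01 to 21.6 in WT LPS and 11.8 to 33.0 in labelled KO medium. No marker of these lists was at 0 throughout a group. These levels stand beside the values of all 10 genes, the 6 called ones included, and the part of the markers in them was not tested.

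Arg2 (chromosome 12, 79130777 to 79156301, plus strand) encodes the mitochondrial arginase. It read 13.0, 4.97 and 20.96 CPM in WT medium and 71.9, 17.8 and 138 CPM in WT LPS. It read 80.4, 46.8 and 82.5 CPM in labelled KO medium and 5.68, 9.004 and 14.8 CPM in labelled KO LPS. The WT groups overlapped through WT LPS 2, while the labelled KO groups did not overlap. This overlap is in CPM, without TMM factors. With them, WT LPS 2 lay above every library of WT medium. Arg2 rose by 3.29 ± 0.71 with LPS in WT (9.81-fold; adjusted p = 0.00756, edgeR) and was lower with LPS in the libraries labelled KO by -3.57 ± 0.72 (adjusted p = 0.00359, edgeR). Without WT LPS 3 the WT value was 2.47 and still called (adjusted p = 0.0355, edgeR). The gene Vti1b, named after its values were seen, overlaps Arg2 on the opposite strand by 285 exon bases at 46.5 to 122 CPM; it was not called, at 0.09 ± 0.38 for LPS in WT. Since the use of strand in counting is not known, some counts of either gene could belong to the other.

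Odc1 (chromosome 12, 17544794 to 17551505, plus strand) encodes ornithine decarboxylase, and Sat1 (chromosome X, 155213132 to 155216449, minus strand) the acetyltransferase that opens polyamine breakdown and export. The Odc1 window (GRCm38.p6, chr12:17544623-17544922, plus strand, from RefSeq) is shown as that of the polyamine gene called with Nos2. It holds 1 match to the NF-κB type motif, in capitals, and none to the other motifs.
Odc1: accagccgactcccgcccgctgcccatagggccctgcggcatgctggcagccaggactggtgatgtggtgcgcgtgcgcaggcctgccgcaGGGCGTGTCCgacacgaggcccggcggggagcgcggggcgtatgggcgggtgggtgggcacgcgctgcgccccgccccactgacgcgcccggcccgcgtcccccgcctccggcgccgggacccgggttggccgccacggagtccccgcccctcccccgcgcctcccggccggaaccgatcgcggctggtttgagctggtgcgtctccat
The RefSeq table also held windows for Slc7a1 and Sat1, so 5 of the 10 genes had one, and none was matched for Nos2, Slc7a2, Asl, Arg1 and Arg2. Slc7a1, not called by the main fit, matched the NF-κB type motif from -79, -60, -44 and -26 of a RefSeq start. Its windows also held matches to the GAS type, the C/EBP type and TATAAA. Sat1 held no match. The NF-κB type motif was thus not confined to called genes.

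Odc1 read 61.0, 104 and 61.5 CPM in WT medium and 178, 79.2 and 211 CPM in WT LPS. It read 136, 85.6 and 168 CPM in labelled KO medium and 91.4, 58.1 and 72.2 CPM in labelled KO LPS. In both pairs 1 library, WT LPS 2 or labelled KO medium 2, fell within the range of the other group. This overlap is in CPM, without TMM factors. With them, the overlap of the WT groups stayed and that of the labelled KO groups did not. Odc1 rose by 1.65 ± 0.46 with LPS in WT (3.14-fold; adjusted p = 0.0275, edgeR) and was lower with LPS in the libraries labelled KO by -1.54 ± 0.46 (adjusted p = 0.0255, edgeR). Both calls ended with scaling by library totals alone, at 1.05 (adjusted p = 0.0612) and -0.81 (adjusted p = 0.107), and when any of several libraries was left out. The WT call ended without WT medium 1 or 3 or WT LPS 1 or 3, at 1.29 to 1.48. The labelled KO call ended without labelled KO medium 1 or 3 or labelled KO LPS 2 or 3, at -1.51 to -1.38, and with a term for Xist-positive libraries, at -0.81 (adjusted p = 0.0891). In a fit to the WT libraries alone the WT value was 1.57 (adjusted p = 0.0972). Odc1 has 14 copies elsewhere at 91.8% to 97.8% identity, which together held 2.76% to 15.6% as many counts; with them added the WT value was 1.56 and was called.

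Per gene length, Sat1 had the higher FPKM of the polyamine pair in all 12 libraries. It read 509, 462 and 519 CPM in WT medium and 525, 274 and 337 CPM in WT LPS. It read 425, 561 and 504 CPM in labelled KO medium and 475, 789 and 647 CPM in labelled KO LPS. In CPM, WT LPS 2 and 3 lay below, and labelled KO LPS 2 and 3 above, every library of WT medium and labelled KO medium. This order is without TMM factors and does not hold with them. Sat1 was not called: the log2 difference was 0.25 ± 0.33 for LPS in WT and -0.39 ± 0.33 for LPS in the libraries labelled KO (adjusted p = 0.657 and 0.396, edgeR), and both changed sign on library totals alone, to -0.39 and 0.36. In medium, labelled KO against WT was 0.83 ± 0.34 (adjusted p = 0.0893, edgeR), and was called by DESeq2 at 0.81 (adjusted p = 0.0489).

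**Figure D3:**
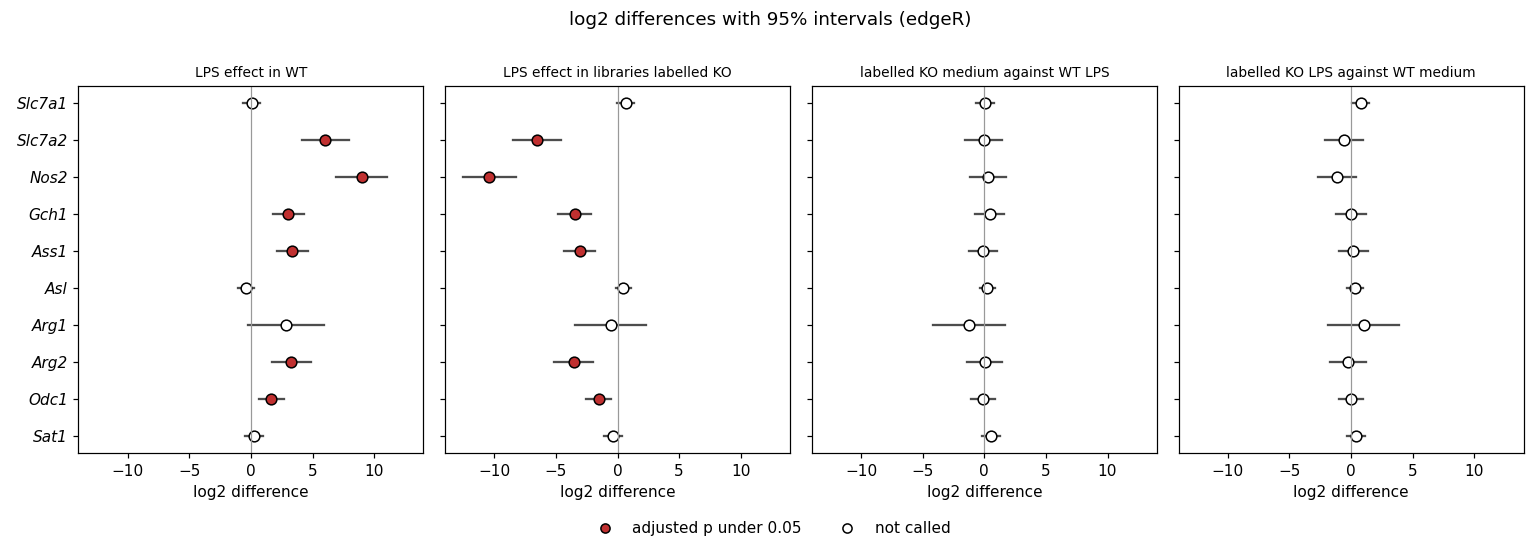
Log2 differences (points) with 95% intervals (lines) from edgeR for the 10 genes in 4 comparisons; filled points have an adjusted p under 0.05. Of the 10, 6 are filled with LPS in WT, the same 6 with the opposite sign in the libraries labelled KO, and none in the comparisons of labelled KO medium with WT LPS or labelled KO LPS with WT medium.

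The LPS response itself differed between the genotypes as labelled. The difference of the LPS effects (labelled KO minus WT) was -19.40 ± 1.36 on the log2 scale for Nos2 and -12.57 ± 1.25 for Slc7a2, and lay between -6.86 and -3.19 for Arg2, Gch1, Ass1 and Odc1. These 6 of the 10 genes were called in this interaction, where 41.1% of all genes were called, 20.6% lower, and the median was -4.94 against 0.11 over all genes. Without labelled KO LPS 1 the value was -20.66 for Nos2, -13.35 for Slc7a2 and -7.15 for Gch1. Without WT medium 2 it was -13.70 for Slc7a2 and -7.06 for Ass1, and without WT LPS 3 it was -6.04 for Arg2. Arg1 was not called, at -3.42 ± 1.92 (adjusted p = 0.176, edgeR), but was without labelled KO LPS 1, at -7.66 (adjusted p = 0.00204, edgeR), and with no filter, at -3.25 (adjusted p = 0.0209). Scaling by library totals alone called Asl and Slc7a1 too, at 2.19 and 1.85, which gave 2 higher and 6 lower.

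In the comparisons of labelled KO with WT, Nos2 was lower under LPS by -10.13 ± 0.98 and higher in medium by 9.27 ± 0.95 (adjusted p = 6.6e-05 and 8.1e-05, edgeR). Slc7a2 was at -6.60 ± 0.90 and 5.98 ± 0.87, Arg2 at -3.54 ± 0.72 and 3.32 ± 0.71, Ass1 at -3.19 ± 0.57 and 3.27 ± 0.58, and Gch1 at -3.05 ± 0.59 and 3.48 ± 0.60. Each of these 5 was called in both, and in every alternative run. Under LPS the values without labelled KO LPS 1 were -11.39 for Nos2, -7.37 for Slc7a2 and -3.67 for Gch1, and without WT LPS 3 that of Arg2 was -2.79. In medium the values without WT medium 2 were 7.15 for Slc7a2, 4.07 for Gch1 and 3.87 for Ass1. The Odc1 values, -1.65 ± 0.46 and 1.54 ± 0.46 (adjusted p = 0.0233 and 0.0284, edgeR), lost their calls on library totals, at -1.08 and 0.78. The Odc1 call in medium also ended with the Xist term, at 0.91 (adjusted p = 0.0564), and without WT medium 1 or 3 or labelled KO medium 1 or 3; the call under LPS ended without WT LPS 1 or 3 or labelled KO LPS 2 or 3. On library totals the calls became 2 higher and 5 lower under LPS and 5 higher and 1 lower in medium.

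Labelled KO medium and WT LPS, which bear opposite labels for both factors, were then set side by side, as were labelled KO LPS and WT medium. None of the 10 genes was called by edgeR or DESeq2 in either comparison. Over all genes, edgeR called 0% in both, with 1.96% and 8.24% at an unadjusted p under 0.05. DESeq2 called 0 and 41 genes. Between labelled KO medium and WT LPS, the log2 differences of the 10 genes ran from -1.26 ± 1.34 (Arg1) to 0.58 ± 0.33 (Sat1), with a median of 0.03 against -0.02 over all genes. Between labelled KO LPS and WT medium they ran from -1.15 ± 0.70 (Nos2) to 1.01 ± 1.34 (Arg1), with a median of 0.09 against 0.04. Without labelled KO LPS 1 the Arg1 value there became -3.23 and that of Nos2 -2.41. One of the 10, Slc7a1, had an unadjusted p under 0.05 in the latter (0.79 ± 0.32, unadjusted p = 0.0288, adjusted p = 0.587, edgeR). A missing call does not show that these groups are alike: the 95% interval for Nos2 between labelled KO LPS and WT medium ran from -2.67 to 0.37.

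Levels of different genes were then compared per gene length, as fragments per kilobase and 1000000 fragments (FPKM, the second deposited table). In WT medium Sat1 stood highest, at 166 to 187 FPKM, and Odc1 followed at 17.9 to 30.4, overlapping Arg1 at 4.26 to 18.7. Ass1, Asl, Arg2 and Gch1 overlapped Arg1. Nos2, at 0.884 to 1.89, overlapped Slc7a1, at 0.787 to 1.35, and Slc7a2, at 1.15 to 4.59. In WT LPS Nos2 led at 188 to 613 FPKM, overlapping Sat1 at 98.9 to 189 by a narrow margin. Slc7a2 (49.4 to 132), Ass1 (50.3 to 116) and Arg1 (21.2 to 108) overlapped one another. In labelled KO medium Nos2 led without overlap, at 260.1 to 616 FPKM against 153 to 202 for Sat1. In labelled KO LPS Sat1 was highest, at 171 to 285 FPKM. Nos2 was among the lowest there, at 0.156 to 1.23, and overlapped Slc7a2, at 0.627 to 2.91, and Arg1, at 0.294 to 67.9. The 10 genes together took 0.0714% to 0.0809% of counts in WT medium, 0.231% to 0.510% in WT LPS, 0.307% to 0.462% in labelled KO medium and 0.0878% to 0.0980% in labelled KO LPS.

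A ratio of genes within a library does not depend on how libraries are scaled. Nos2 over Arg1, the enzymes that compete for arginine, was 0.317, 0.0615 and 0.101 in WT medium and 23.0, 1.74 and 10.1 in WT LPS. It was 59.9, 35.6 and 10.8 in labelled KO medium and 0.0181, 1.09 and 0.0698 in labelled KO LPS. Nos2 thus exceeded Arg1 in all libraries of WT LPS and labelled KO medium and, of the other 6, only in labelled KO LPS 2, where both were under 0.4 FPKM. Slc7a2 over Slc7a1 was 1.34 to 3.41 in WT medium, 59.9 to 203 in WT LPS, 98.9 to 182 in labelled KO medium and 0.359 to 1.85 in labelled KO LPS. Ass1 over Asl was 0.596 to 1.69, 12.9 to 20.6, 8.72 to 23.7 and 0.477 to 1.86 in the same order. Neither of these pairs overlapped between high and low groups. Odc1 stayed under Sat1 in every library, with ratios of 0.0600 to 0.509. Arg2 over Arg1 overlapped between all 4 groups: it spanned 0.242 to 2.13 in WT medium, 0.115 to 2.37 in WT LPS, 1.18 to 5.48 in labelled KO medium and 0.0586 to 21.4 in labelled KO LPS. Of the 4 groups, only labelled KO medium had Arg2 above Arg1 in every library.

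**Figure D4:**
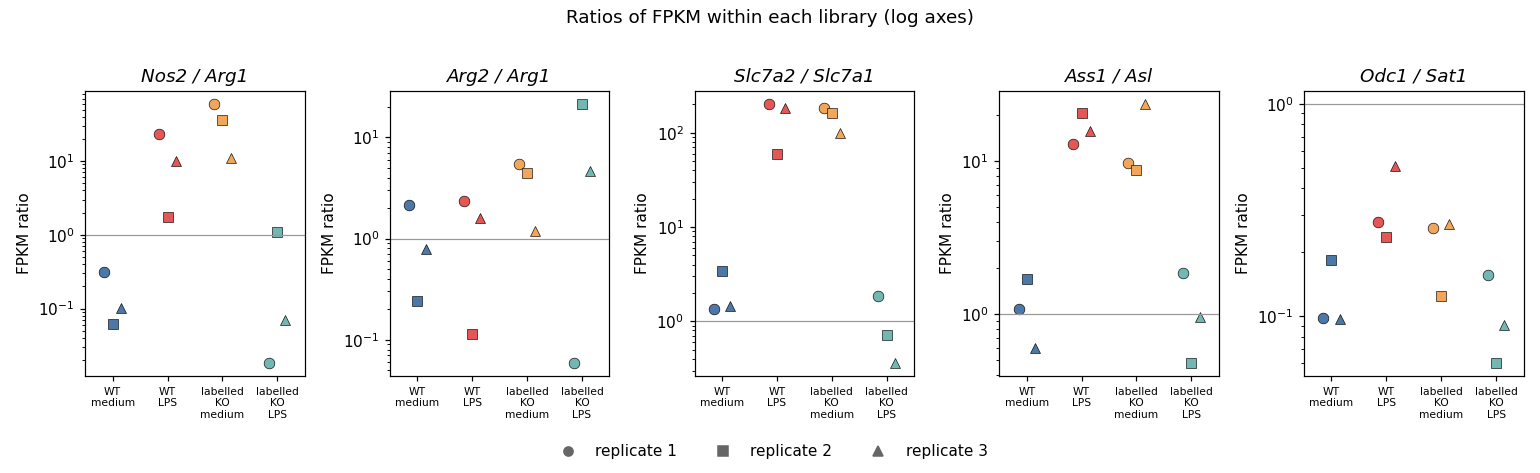
Ratios of FPKM between gene pairs within each of the 12 libraries (log axes; the grey line marks a ratio of 1, symbols the replicate number). Slc7a2 over Slc7a1 and Ass1 over Asl separate WT LPS and labelled KO medium from the other groups, while Arg2 over Arg1 does not.

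The genes whose profile over the 12 libraries was most like that of Nos2 were Ifi205, Cd69, Il1a and Cxcl10. Likeness was the root mean square difference of centred log2 CPM (TMM scaled), which was 1.25, 1.30, 1.36 and 1.36 for them, against a median of 5.02 over 11984 genes. Of the other 9 genes of the set, Slc7a2 came closest to Nos2, at 1.81 and rank 19, and Arg1 stood at 3.86 and rank 642. For Arg1 the most like genes were Tmeff1 (1.12), Sema3c (1.15), Col3a1 (1.19) and Ankrd66 (1.28), with a median of 2.48. For Odc1 they were Tpm4 (0.251), Ywhaz (0.273), Chst11 (0.273) and D1Ertd622e (0.299), with a median of 1.11. A gene with a flat profile would score 4.96 against Nos2, 2.39 against Arg1 and 0.933 against Odc1. The measure thus depends on the size of the changes as well as on their pattern. Col3a1, a collagen of stromal cells, is among the 7 stromal markers, whose sum was 48.8 to 121 CPM in WT medium, 38.8 to 266 in WT LPS, 39.7 to 130.3 in labelled KO medium and 28.6 to 79.4 in labelled KO LPS; the part of such cells in the Arg1 values was not tested.

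Around these 10 genes, 55 further genes of arginine transport, the urea cycle, nitric oxide, tetrahydrobiopterin, proline and glutamate, polyamines and hypusine were listed, and 43 were tested. Called genes came from 3 of these groups: transport, ornithine to proline and glutamate, and polyamines. With LPS in WT, 3 of 43 were higher and 5 lower (18.6% called, against 18.3% of all genes), with a median of -0.39 against -0.06; on library totals it was 1 higher and 15 lower. Smox, spermine oxidase, rose by 1.46 ± 0.33 (adjusted p = 0.00908, edgeR), and Slc3a2, the shared heavy chain of several amino acid transporters, by 1.40 ± 0.32. Glul, glutamine synthetase, was lower by -1.53 ± 0.36, Atp13a3, a polyamine transporter, by -1.40 ± 0.34, and Pycrl, a pyrroline-5-carboxylate reductase, by -1.36 ± 0.34 (adjusted p = 0.0150 or 0.0156 for the latter pair and 0.0110 for Glul, edgeR). The 8 calls were 3 without WT medium 1, 2 without WT medium 3, 5 without WT LPS 1 and 3 without WT LPS 3, and 0 between libraries that share a number (11 at an unadjusted p under 0.05, edgeR). Of the named genes only Smox kept its WT call without each of these libraries, and it lost it on library totals, at 0.87 (adjusted p = 0.0772), and between libraries that share a number, at 1.33 (adjusted p = 0.107, edgeR). Between libraries that share a number, 1044 of all 13773 genes were called and 3042 had an unadjusted p under 0.05 (edgeR).

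In the libraries labelled KO, 11 of the 43 were higher with LPS and 1, Smox, was lower (27.9% called, against 30.4% of all genes), with a median of 0.44 against 0.04. Glul was higher by 2.23 ± 0.36 (adjusted p = 0.00114, edgeR), Slc7a6, a cationic and neutral amino acid exchanger, by 1.81 ± 0.34, and Oat, the aminotransferase that links ornithine to proline and glutamate, by 1.33 ± 0.24. Smox was lower by -1.30 ± 0.33 (adjusted p = 0.0112, edgeR), a call that ended without labelled KO LPS 2, at -1.18 (adjusted p = 0.0572), and on library totals, at -0.58. For labelled KO against WT the counts were 6 higher and 1 lower under LPS (16.3% called, against 24.1% of all genes), or 11 called without WT LPS 2. In medium they were 3 higher and 10 lower (30.2%, against 26.3%), or 0 and 22 on library totals, with 6, 8, 5 and 7 called without WT medium 1 or 3 or labelled KO medium 1 or 3. Glul was at 1.85 ± 0.36 under LPS and -1.91 ± 0.36 in medium, and Oat at 1.01 ± 0.24 and -1.02 ± 0.24, all called in every alternative run. In the difference of the LPS effects, 14 were higher and 3 lower (39.5%, against 41.1% of all genes), or 26 and 1 on library totals. With its shares near those of all genes or below them, these counts are no result about the list. Neither are its counts with a library left out, here and above, for which no share of all genes is given. In the difference of the LPS effects, Glul was at 3.76 ± 0.51 and Smox at -2.76 ± 0.46. None of the 43 was called by edgeR or DESeq2 between labelled KO medium and WT LPS or between labelled KO LPS and WT medium, where 1 and 3 had an unadjusted p under 0.05.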

How the data were processed

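RNA was measured in 12 libraries of macrophages, 3 in each of 4 groups taken from the labels. The deposited table of read counts per gene holds whole numbers that the authors had not normalized. The deposited FPKM table holds values that the authors scaled by gene length and library total; FPKM per CPM was constant between libraries within 0.00672%, so the tables are not independent. The build was mm10, per the submitters' processing notes. Read aligner, counter, strand use and gene annotation were not given in the sources used here. Both a TruSeq and a KAPA Stranded kit are named in the labels' protocols, so which was used for a library is not known.

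The model was edgeR 4.0.16 under R 4.3.3 (TMM factors, filterByExpr, glmQLFit and glmQLFTest on all 12 libraries with 1 mean per group), with Benjamini-Hochberg adjustment over 13773 genes in each of 7 comparisons. The fit was tested on simulated data. DESeq2 1.42.0, DESeq2 size factors, library totals, no filter, a replicate block, the compared groups alone and leaving out each library were the alternatives. A term for Xist above 20 CPM, terms for the numbers that descriptions of WT medium and WT LPS share, and the addition of near-identical copies (BLAST+ 2.17.0, at least 90% identity over 200 bases) were chosen after seeing the data. SE came from the F statistic, and 95% intervals from the SE. Positions are from GENCODE M21 (GRCm38, mm10), and promoter windows from RefSeq.

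The members and lists were chosen with earlier results of these data known. Named genes were all 10 members, from the wider list the 2 called genes of smallest p in each direction of each comparison, and the 4 genes most like Nos2, Arg1 and Odc1. Libraries of 1 group differed far beyond counting noise (chi-square per degree of freedom at least 22.3), so none was counted as a duplicate. The labels do not tie replicates to animals. Xist split the replicates of WT medium, WT LPS and labelled KO LPS, so each of these groups held more than 1 animal; for labelled KO medium the spread could be technical. Floors of 3 counts cover counting error only.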

Additional observations from a re-analysis of the deposited data

Results flagged for a closer look

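The LPS effect in the libraries labelled KO differed from that in WT, by a test of the difference itself, for 6 of the 10 genes. Of all genes tested, 41.1% were called in that test, 20.6% lower. The difference is formed from the same 2 LPS effects given above, so it is not independent of them. On the log2 scale, labelled KO minus WT, this difference was -19.40 for Nos2 (adjusted p = 1.7e-06, edgeR) and -12.57 for Slc7a2 (adjusted p = 1.7e-05, edgeR). It was -6.86 for Arg2, -6.53 for Gch1 and -6.46 for Ass1 (adjusted p = 0.000255, 0.000105 and 8.6e-05, edgeR). It was -3.19 for Odc1 (adjusted p = 0.00226, edgeR). Each effect was positive in WT and negative in the libraries labelled KO. The labels of the latter went against the level of Nlrc3 in labelled KO LPS. Those of both labelled KO groups went against the levels of the 8 LPS-responsive genes outside the set. Nlrc3 was itself lower with LPS in WT, by -1.89 ± 0.53 (adjusted p = 0.0268, edgeR). Between labelled KO medium and WT LPS, Nlrc3 was not called, at -0.94 ± 0.55 (adjusted p = 0.950, edgeR).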

How the results depend on the processing

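In the 5 comparisons that called any of the 10 genes, Nos2, Slc7a2, Ass1, Arg2 and Gch1 kept their direction and, except for Arg2 in 1 case, their call under every alternative run. The counts of called members stayed between 4 and 8 against 6. They are no result about the 10 genes where no share of all genes is given. The exception was the comparison of WT medium with WT LPS only between the 2 pairs of libraries that share a number in their descriptions, where Arg2 (2.29) and Odc1 (1.10) and the whole wider list (0 called by edgeR, 11 at an unadjusted p under 0.05, DESeq2 not run) lost their calls. Calls over all 13773 genes fell there too, from 2526 to 1044. Both pairs were alike in Xist and their deviations from the group means correlated at 0.593 and 0.456; only 4 of the 6 WT libraries inform that comparison. In the difference of the LPS effects, the fit with terms for shared numbers called 6 members and 15 of the wider list, beside 4563 of all 13773 genes. Counts of the wider list moved more. On library totals its calls were 16 (LPS in WT), 20 (LPS, labelled KO), 16 (labelled KO against WT under LPS), 22 (in medium) and 27 (difference of the LPS effects), against 8, 12, 7, 13 and 17. With the Xist term, 13 were called for LPS in WT and 13 for labelled KO against WT under LPS, where DESeq2 called 12; a fit to the WT libraries alone called 4. Leaving out 1 library gave 2 to 11 for LPS in WT, 5 to 11 under LPS and 5 to 12 in medium. Calls over all genes move between runs as well: for labelled KO against WT under LPS, DESeq2 called 4369 and edgeR 3324. For the other runs of this kind the share of all genes is not given. These counts are thus no result about the list.

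Signs changed for values that were not called. For LPS in WT, Slc7a1 was 0.08, and -0.46 on library totals, -0.014 with no filter and -0.14 to 0.46 with 1 library left out; Sat1 was 0.25, and -0.39 on library totals and -0.21 to 0.52. For LPS in the libraries labelled KO, Arg1 was -0.58, and 0.078 on library totals and -4.81 to 0.68 with 1 library left out; Sat1 was -0.39, and 0.36 on library totals. For labelled KO against WT under LPS, Sat1 was 0.19, and -0.083 to 0.58. In medium, Asl was -0.14, and -0.34 to 0.0067 with 1 library left out; Slc7a1 was 0.12, and -0.63 on library totals, -0.062 with the Xist term and -0.15 to 0.49. For labelled KO LPS against WT medium, Arg1 was 1.01, and -3.23 to 1.59. In the difference of the LPS effects Sat1 was -0.64, and 0.75 on library totals. Library totals shifted the median of all genes; the cause of the other changes was not tested.

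The replicate numbers do not pair the samples: deviations of same-numbered libraries from their group means correlated between -0.63 and 0.567. With the replicate number as a block, 5 members were called for LPS in WT and 5 for labelled KO against WT in medium, Odc1 being lost at 1.51 (adjusted p = 0.0714) and 1.44 (adjusted p = 0.0608, edgeR), and 6 in the other 3 comparisons. The share of all genes called with the block is not given, so these counts are no result about the genes counted. Of the named genes of the wider list the block ended 1 call, that of Slc7a6 for LPS in WT, at -1.13 (adjusted p = 0.0569, edgeR).

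With 3 libraries a group, intervals were wide where libraries differed, as for Arg1. Low members rest on few counts, 13 for Nos2 and 12 for Arg1 in single libraries labelled KO LPS. Which of the scalings, library totals or TMM, lies closer to RNA per cell was not tested.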
